A study of Mus musculus with 4 samples.

Results

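The miRNAs described here are the guide strands of 2 mouse miRNA clusters that are paralogs of miR-17-92, together with a seed relative. They were picked out by exact probe name, from a list drawn up with earlier results of these data known: mmu-miR-106b, mmu-miR-93 and mmu-miR-25 of the miR-106b-25 cluster, mmu-miR-106a, mmu-miR-18b, mmu-miR-20b and mmu-miR-363 of the miR-106a-363 cluster, and mmu-miR-92b. All 8 were among the 700 miRNA probes of the array, and 6 of them were detected well enough in at least 1 stage to be tested.

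HC11, an established epithelial cell line from mouse mammary gland whose dividing cells the labels call stem cell-like, was sampled in 2 states. The proliferating state was collected after 48 h in RPMI medium with L-glutamine, insulin, gentamicin, 10% fetal bovine serum and epidermal growth factor, whose concentration the labels give in conflicting units. Differentiated cells had spent 48 h in 2% serum without that factor. A further 72 h followed with 100 nM dexamethasone and 1 µg/mL ovine prolactin. Serum, growth factor, hormones and time in these media thus all differ between the groups and cannot be told apart. Each stage had 2 samples on dual-colour arrays with swapped dyes. Nothing in the labels ties the replicates of a stage to separate cultures, and the sample titles carry a further replicate mark (repx3) that is not explained, so whether a sample pools several cultures is not known. The p-values therefore cover only the spread between these samples, and that spread also contains each probe's dye effect. In bulk RNA, fewer cells that express a miRNA and less of it in each cell cannot be told apart. The comparison addresses how these proliferation-linked miRNAs stood in stem-like and in hormone-differentiated mammary cells.

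A miRNA guides the silencing complex to messenger RNAs that pair with its seed, so miRNAs with the same seed share many predicted targets. The miR-17 family, to which miR-106b, miR-93, miR-106a and miR-20b belong, is known in mouse and human cells for repressing the cell-cycle inhibitor p21 and for lying in a loop with E2F transcription factors. The miR-106b-25 cluster sits inside Mcm7, which encodes a subunit of the replicative helicase and is an E2F target gene. The miR-25 and miR-92 family, with miR-363 and miR-92b, carries another seed and is known for repressing Bim, an inducer of apoptosis. miR-18b belongs to the miR-18 family.

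The mature sequences show how closely the 8 are related, and how little separates some of them from members of miR-17-92. They are the target sequences of the deposited scanner tables, and all 8 matched a RefSeq mature miRNA exactly (build GRCm38.p6). Capitals mark the seed, bases 2 to 8. The seed AAAGUGC is shared by 4 of them:
miR-106b: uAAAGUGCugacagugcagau
miR-93: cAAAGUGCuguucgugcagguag
miR-106a: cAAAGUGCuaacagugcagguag
miR-20b: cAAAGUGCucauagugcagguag
The seed AUUGCAC is shared by 3:
miR-25: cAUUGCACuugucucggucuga
miR-363: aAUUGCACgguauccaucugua
miR-92b: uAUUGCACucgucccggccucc
The seed AAGGUGC occurs in 1:
miR-18b: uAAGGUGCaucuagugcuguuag
For comparison, these are the nearest guides of miR-17-92:
miR-17: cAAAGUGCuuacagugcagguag
miR-20a: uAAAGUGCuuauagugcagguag
miR-18a: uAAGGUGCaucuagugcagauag
miR-92a: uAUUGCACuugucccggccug

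Relative to miR-17, with positions counted from 1 at the 5′ end, miR-106a differs only by U10A and miR-20b by U10C and C12U. miR-18b differs from miR-18a by A18U and A20U. Counted in edits (insertions, deletions and substitutions), miR-93 is 3 from miR-17, miR-106b is 5 from it, and miR-92b is 3 from miR-92a. A probe can also bind a close relative of its target, and the part of this in the values below was not tested.

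In the RefSeq table the mature strands of the miR-106b-25 cluster lie on the minus strand of chromosome 5, at chr5:138165787-138165807 for miR-106b, chr5:138165574-138165596 for miR-93 and chr5:138165332-138165353 for miR-25. All 3 hairpins fall inside the Mcm7 gene, which is on the same strand. The miR-106a-363 cluster lies on the minus strand of chromosome X, where miR-106a is at chrX:52742541-52742563, miR-18b at chrX:52742381-52742403, miR-20b at chrX:52742159-52742181 and miR-363 at chrX:52741697-52741718. That cluster also holds a copy of the miR-19b and miR-92a genes. Their mature strands are identical to those made from miR-17-92 on chromosome 14, and their probes cannot tell the loci apart. miR-92b is alone at chr3:89227126-89227147, with no other miRNA gene within 10 kb.

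Of the 8 miRNAs, 6 were detected in both proliferating samples and 4 in both differentiated samples. miR-106b, miR-93, miR-25 and miR-92b were detected in every sample. miR-106a and miR-20b were detected in the proliferating cells alone, and miR-18b and miR-363 in no sample. Detection meant that at least 3 of a probe's 5 spots exceeded the local background by more than a margin set from the empty spots, which was 13.2 and 53.7 intensity units in proliferating replicates 1 and 2, and 7.75 and 156.5 in differentiated replicates 1 and 2. Across the array 118 probes were detected in all 4 samples and 172 were tested.

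**Figure D1:**
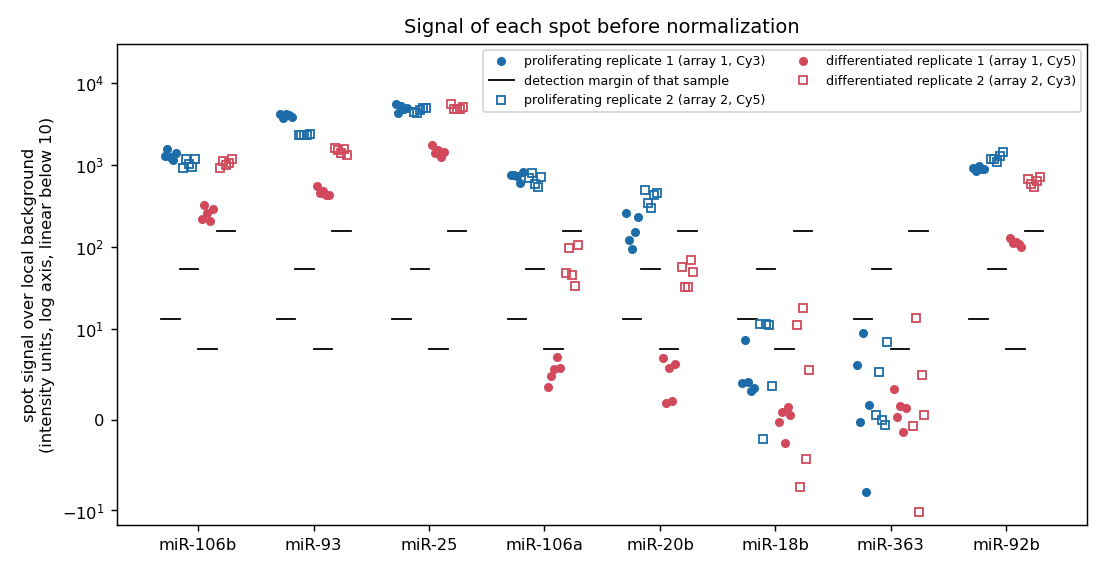
Signal over local background of each of the 5 spots of every miRNA in each sample, before normalization, on an axis that is logarithmic above 10 intensity units; short black lines mark each sample's detection margin. All spots of miR-18b and miR-363 lie under the margins, and those of miR-106a and miR-20b exceed them in the proliferating samples only.

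All 6 tested miRNAs fell in the differentiated cells relative to the bulk of miRNA probes, at a limma adjusted p under 0.05, and none rose. In the same fit 13.4% of the 172 tested probes were called lower and 16.9% higher. The median log2 ratio of differentiated over proliferating cells was -2.29 over the 6 and 0.11 over all tested probes. Because miR-106a and miR-20b entered the test through their proliferating signal alone, the count is a description. The 4 miRNAs detected in every sample did not depend on such a choice, and each of them fell.

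miR-106b, which represses p21 and gives the cluster its name, had a signal over background of 1329 ± 158 (SD of 5 spots) in proliferating replicate 1 and 261 ± 49.2 in differentiated replicate 1, its partner on array 1. On array 2 the proliferating sample read 1051 ± 127 and the differentiated one 1051 ± 94.1. The unnormalized signals were thus apart on array 1 and alike on array 2. On array 2 the differentiated channel was the brighter one for most miRNAs: the median unnormalized log2 ratio over the tested probes was 1.70, against -0.06 on array 1. After normalization within each array, which sets ratios against the bulk of probes, the levels of miR-106b were 10.86 and 10.41 (log2 intensity) in the proliferating samples and 8.74 and 9.01 in the differentiated ones, with no overlap. The log2 ratios were -2.12 on array 1 and -1.41 on array 2, a mean of -1.76 ± 0.51 (SD, n = 2 arrays), or 3.39-fold lower (adjusted p = 0.0296).

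miR-93, with the seed of miR-106b, read 3996 ± 178 and 2329 ± 34.9 in proliferating replicates 1 and 2, and 466 ± 52.7 and 1484 ± 109 in differentiated replicates 1 and 2. Here the differentiated sample was the dimmer on both arrays before any normalization. Normalized levels were 12.46 and 11.58 in proliferating cells and 9.37 and 9.53 in differentiated cells. The log2 ratios of -3.09 and -2.05 gave a mean of -2.57 ± 0.74, or 5.93-fold lower (adjusted p = 0.0241).

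miR-25, the member with the miR-92 seed, read 4976 ± 430 and 4679 ± 284 in the proliferating samples, and 1463 ± 172 and 5004 ± 293 in the differentiated ones. On array 2 its unnormalized signal was slightly higher in the differentiated sample, by 0.10 on the log2 scale. Normalized levels were 12.80 and 12.52 against 10.82 and 11.21, again without overlap. The log2 ratios of -1.98 and -1.32 gave -1.65 ± 0.47, or 3.13-fold lower (adjusted p = 0.0305), which was the smallest fall among the 6.

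Although these 3 miRNAs come from hairpins inside 1 gene, their ratios were not equal. miR-93 fell further than miR-106b by a log2 gap of -0.97 on array 1 and -0.64 on array 2, a mean of -0.80 ± 0.23. miR-106b and miR-25 were close, with gaps of -0.14 and -0.09. The order miR-93, miR-106b, miR-25 from the largest fall was the same on both arrays. With 2 arrays the gaps were not tested.

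**Figure D2:**
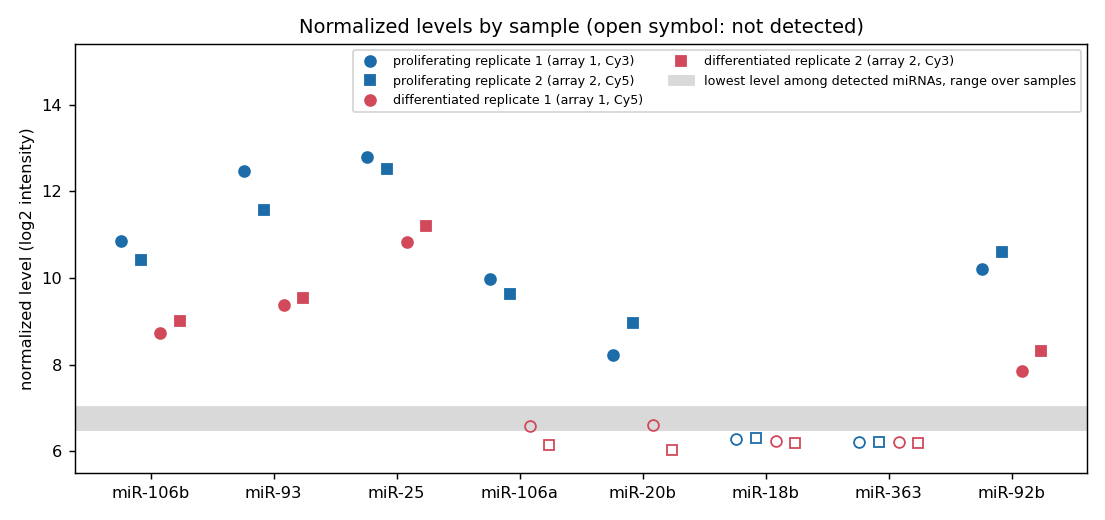
Normalized log2 level of each miRNA in the 4 samples, circles for array 1 and squares for array 2, filled where the miRNA was detected; the grey band is the range over samples of the lowest level among detected miRNAs. The proliferating samples (blue) lie above the differentiated ones (red) for miR-106b, miR-93, miR-25, miR-106a, miR-20b and miR-92b.

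The passenger strand of miR-106b is the only passenger strand of these hairpins that was tested. Probes for those of miR-93 and miR-20b were on the array too and were detected in no sample. The strand is shown because it is made from the same hairpin as its guide, at chr5:138165746-138165767, with another seed:
miR-106b*: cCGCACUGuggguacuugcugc
It was detected in both proliferating samples, with signals of 36.9 and 72.5, and in neither differentiated sample, at 6.17 and 55.5. It was not called (adjusted p = 0.134), so the bound of 1.30-fold lower in the differentiated cells is a description. On array 2 its proliferating signal lay under the margin of the differentiated sample, 156.5. Its log2 ratio was -0.66 ± 0.38. The offset added in background correction pulls dim probes towards 0, and the size of that effect on this probe was not tested.

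miR-106b, miR-93 and miR-25 moved in the same direction and lie inside Mcm7, so the Mcm7 promoter is given here. RefSeq-based tables hold 2 windows for this gene, each from 250 bases before to 50 after a transcript start. The window at chr5:138171834-138172133 (GRCm38.p6, minus strand) holds an E2F-type motif, searched as TTTNNCGC on both strands, at positions -165 and 17 relative to the start. The matches are in capitals:
Mcm7: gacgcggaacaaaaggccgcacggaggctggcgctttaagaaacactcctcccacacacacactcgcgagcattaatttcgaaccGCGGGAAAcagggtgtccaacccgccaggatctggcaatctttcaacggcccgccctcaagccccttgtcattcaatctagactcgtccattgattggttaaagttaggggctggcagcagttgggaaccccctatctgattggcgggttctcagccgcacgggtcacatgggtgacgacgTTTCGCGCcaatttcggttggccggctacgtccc
Of 32851 promoter windows of this length, 5.17% hold this motif. The other Mcm7 window holds none, and neither window holds CACGTG, the E-box bound by Myc, which occurs in 7.15% of all windows. These matches describe the sequence alone. Mcm7 RNA was not measured on this array.

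miR-106a, the first hairpin of the X-linked cluster and a miR-17 family member, read 729 ± 84.1 and 665 ± 103 in proliferating replicates 1 and 2. In differentiated replicates 1 and 2 it read 5.28 ± 1.23 and 65.7 ± 32.8, under both margins. None of its 10 differentiated spots and all of its 10 proliferating spots exceeded the margin. The differentiated level is therefore a bound: averaged over the arrays, miR-106a was at least 8.52-fold lower in the differentiated cells. The log2 ratios were -3.38 and -3.48 on the 2 arrays, a mean of -3.43 ± 0.08 (limma adjusted p = 0.00873 for these ratios, not for the bound). These ratios hold differentiated signals under the margin, so the size of the fall beyond the bound is not determined. Their SD and adjusted p also rest partly on such signals.

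miR-20b, also of the miR-17 family, had 169.5 ± 69.6 and 404 ± 81.9 in the proliferating samples, and 4.47 ± 2.35 and 48.0 ± 15.9 in the differentiated ones. All 10 proliferating spots were above the margin, although those of replicate 1 were spread from 93.9 to 256. Averaged over the arrays, miR-20b was at least 3.65-fold lower in the differentiated cells. Its log2 ratios of -1.60 and -2.94, which also hold differentiated signals under the margin, had an SD of 0.95. The limma adjusted p of 0.0422 belongs to these ratios and not to the bound. The ratio of array 1 alone was a smaller fall than the bound.

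miR-18b, of the miR-18 family, read 4.73 and 7.09 in the proliferating samples and -0.04 and 4.50 in the differentiated ones. miR-363, of the miR-25 and miR-92 family, read 1.78 and 2.74, and 1.00 and 1.56. None of the 20 spots of either exceeded the margin, and no fold is given. Within this cluster the stage difference thus rests on miR-106a and miR-20b. The probe for miR-18a, 2 substitutions away, was detected in both proliferating samples, at 224 and 174 intensity units, whereas that for miR-18b was detected in neither.

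miR-92b, the single-gene relative of miR-92a, read 899 ± 45.1 and 1234 ± 142 in proliferating replicates 1 and 2, and 111 ± 9.71 and 626 ± 71.0 in differentiated replicates 1 and 2. The differentiated sample was the dimmer on both arrays without normalization. Normalized levels were 10.21 and 10.59 against 7.85 and 8.31. The log2 ratios of -2.36 and -2.28 differed little between arrays, giving -2.32 ± 0.06, or 5.00-fold lower (adjusted p = 0.0103). The probe for miR-92a, which is made from other loci, had a ratio of -2.70 ± 0.29. Its gap to miR-92b was -0.55 on array 1 and -0.22 on array 2 and was not tested.

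**Figure D3:**
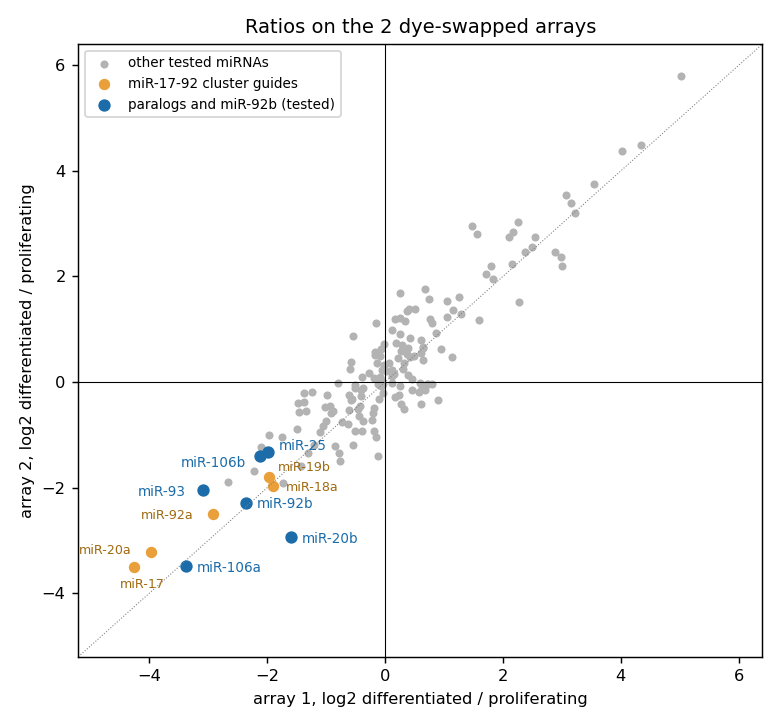
Log2 ratio of differentiated over proliferating cells on array 1 (x axis) and array 2 (y axis) for the 172 tested probes, with the 6 tested paralogs in blue and the 5 tested miR-17-92 guides in orange. All 11 lie below 0 on both arrays, and miR-20b lies farthest from the dotted line of equal ratios among them. Of these, miR-106a, miR-20b and miR-18a entered the test through their proliferating signal alone, which favours ratios below 0. The share of other tested probes below 0 on both arrays was not counted.

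The guides of miR-17-92 itself give the nearest comparison. Of its 6 guides 5 were tested and all 5 fell, with a median log2 ratio of -2.70. The median of the paralogs was -2.29, and the difference between the groups was not tested. miR-18a, like miR-106a and miR-20b, entered the test through its proliferating signal alone. Both sets thus include ratios that hold differentiated signals under the margin, and the medians are a description. miR-17 stood at -3.87 ± 0.54 and miR-20a at -3.59 ± 0.53. Both were detected in all 4 samples. For their closest paralogs, miR-106a and miR-20b, only bounds on the fall are known, so no gap to miR-17 or miR-20a is given. miR-19a, miR-32 and miR-367 were detected in no sample, the last 2 being the remaining probes with the seed of miR-25.

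Other miRNAs linked to the cell cycle did not all go the same way. Of 7 such probes outside these families, 3 fell, 1 rose and 3 were not called, with a median log2 ratio of -0.57. miR-222 and miR-221, which repress the inhibitor p27, fell to ratios of -2.28 ± 0.55 and -1.95 ± 0.38, and miR-15b to -1.50 ± 0.12. miR-195, of the same family as miR-15b and known to restrain cyclin genes, rose by 1.89 ± 0.08. miR-16 (-0.57 ± 0.06), miR-15a (1.22 ± 0.76) and miR-34a, a p53 target (0.17 ± 0.48), did not pass the test.

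The 5 other tested probes with a pattern most like the mean of the paralogs over the 4 samples were miR-222, miR-19b, miR-221, miR-1983 and miR-92a. Likeness was the Euclidean distance between normalized log2 levels centred on each probe's own mean, which ran from 0.44 for miR-222 to 0.71 for miR-92a. The paralogs' own distances from their mean ran from 0.47 for miR-92b to 1.16 for miR-106a.

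The authors' deposited value table, whose scaling is not stated, holds processed intensities of the same samples. In it miR-106b was 1780 and 1688 in proliferating replicates 1 and 2, and 366 and 369 in differentiated replicates 1 and 2. miR-93 was 6136 and 3943 against 559 and 489. The corresponding folds on arrays 1 and 2 were 4.87 and 4.58 lower for miR-106b, 11.0 and 8.06 for miR-93, 3.39 and 2.90 for miR-25, and 6.28 and 8.57 for miR-92b. For miR-106a this table had 1061 and 914 against 15.1 and 34.1, and for miR-20b 183 and 509 against 14.7 and 15.2. In this table too, both proliferating samples lay above both differentiated ones for each of the 6 tested miRNAs. Of these, miR-106a and miR-20b had entered the test through their proliferating signal alone. The separation is a description, since how many of all tested probes separate in this way was not counted. In the fit on these values, 59 of the 172 tested probes were called lower and 45 higher.

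All these directions are relative to the bulk of miRNA probes. After loess normalization the 15 spike control probes had mean log2 ratios of -1.37 and -1.43 on arrays 1 and 2, and the 5S rRNA probes stood at -0.35 and -1.27. Without normalization the spikes stood at -1.48 on array 1 and -0.11 on array 2. Centred on the spikes, the median over all tested probes moved from 0.11 to 1.51, and the 6 miRNAs kept mean ratios below 0. On array 2 alone, the ratios of miR-106b (-1.41) and miR-25 (-1.32) lay above the spike mean, so neither was lower there. miR-106a (-2.03), miR-93 (-1.17), miR-92b (-0.92) and miR-20b (-0.87) were still called lower, while miR-106b (-0.36; adjusted p = 0.261) and miR-25 (-0.25; adjusted p = 0.440) were not. A setting chosen after seeing the data had no normalization and also used plain background subtraction with a floor of 10. Its array means were -4.83 for miR-106a, -3.55 for miR-20b, -2.00 for miR-92b, -1.88 for miR-93, -1.18 for miR-106b and -0.84 for miR-25. Only miR-106a and miR-20b were called. Their spots in differentiated replicate 1 all lay under that floor and were set to it, so the size of these ratios depends on the floor.

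**Figure D4:**
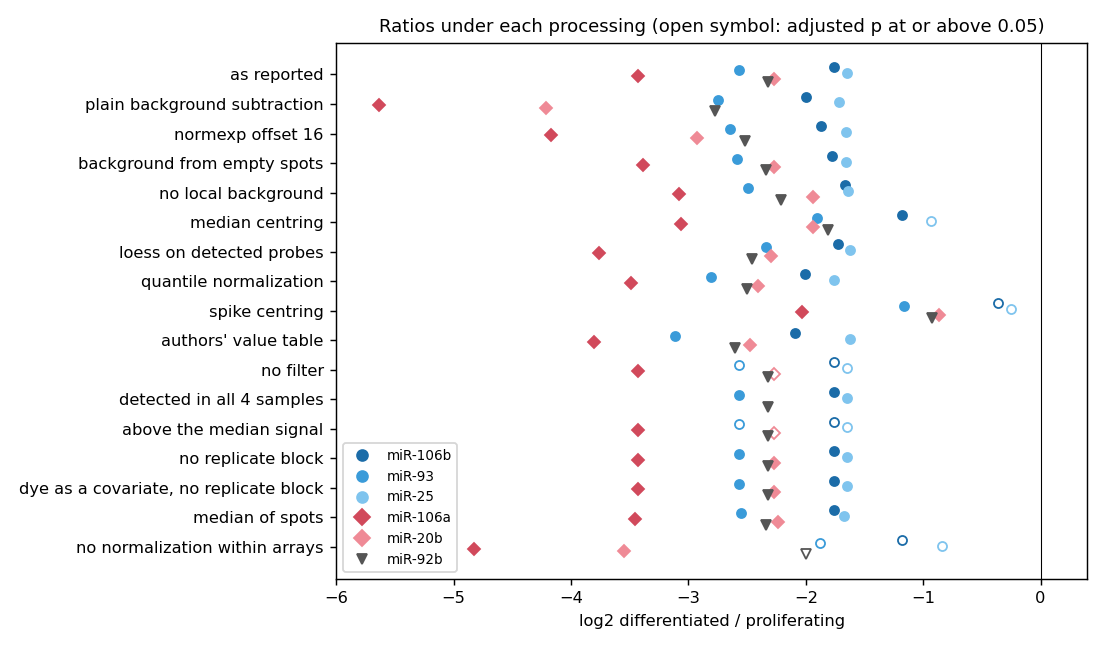
Log2 ratio of the 6 tested miRNAs (x axis) under each processing (rows), with open symbols where the adjusted p was at or above 0.05; miR-106a and miR-20b were not tested among probes detected in all 4 samples. Every symbol, a mean over the arrays, lies below 0, and miR-106b and miR-25 come closest to 0 with spike centring.

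The fit had 1 residual degree of freedom among samples. With 2 samples against 2 and the array pairing ignored, the smallest p that exact permutation allows for a single miRNA is 0.333. With the pairing that the fit used, that limit is larger. The calls also depended on the filter: with all 700 probes tested, which changes both the adjustment and the eBayes prior, only miR-106a and miR-92b were called (adjusted p = 0.0154 for each), and miR-106b, miR-93 and miR-25 had an adjusted p of 0.119.

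The epithelial label was checked against marker miRNAs. Of 6 epithelial markers (the miR-200 family and miR-205) 5 were detected in some sample, miR-141 in none, and 3 rose in the differentiated cells, with summed unnormalized signals of 5776 and 5114 in proliferating replicates 1 and 2 and 18364 and 44310 in differentiated replicates 1 and 2. The last of these samples was the brighter channel of array 2 for most probes, which the sums do not correct for. Of 6 fibroblast and mesenchyme markers 3 were tested and 1 rose, with summed unnormalized signals of 704 and 758 against 547 and 4428. Of the last sum, miR-140 alone gave 3733, and its normalized log2 ratio of 0.17 ± 1.00 was not called. miR-199a-3p, miR-199a-5p and miR-214 were undetected. Neither endothelial marker was detected, nor were 4 of 5 blood markers. In the muscle list miR-206 fell, and of 4 neuron and liver markers 2 were tested and not called. Whether changes in the makeup of the cultures had a part in the ratios of the paralogs was not tested.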

How the data were processed

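The deposited scanner tables give, per the file headers, 1 dye channel per sample as average spot intensity (density) with its SD, with background included and no normalization; each table has 3968 spots, 3500 of them for 700 miRNA probes in 5 spots each. Per the labels' protocols, small RNA was poly(A)-tailed, tagged and stained with Cy3 or Cy5. The authors' value table holds processed intensity per probe, with method not given in the sources used here.

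Same-numbered samples carried opposite dyes and stages and were taken as 1 array. Deviations from the group means correlated at 0.338 between them, identical for both numbers by construction. The levels used had been normalized within the assumed pairs, so this correlation cannot test the pairing. Local background was the 20th percentile of spots within 7 rows and columns. The margin for detection was the mean plus 3 SDs of the empty spots' signal over their local background. Background was corrected with normexp (offset 50), ratios were normalized by loess (span 0.3, controls at weight 0) and spots averaged in limma 3.58.1 under R 4.3.3. Probes detected in both samples of a stage, 172 in all, were tested with lmFit and eBayes, two-sided, with Benjamini-Hochberg adjustment at 0.05 (prior degrees of freedom 2.08). The code was tested on simulated data. Single-channel levels came after Aquantile scaling. For a bound, each undetected sample took the lowest detected level or the probe's own, whichever was higher, before averaging. Spike probes were those detected in all 4 samples. For the fit, the authors' table was used as log2 of intensity plus 50. The folds given from it are ratios of its intensities with nothing added.

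The number of arrays, 2, limits the precision. All 8 miRNAs are described, beside fixed lists of miR-17-92 guides, passenger strands, seed relatives, cell-cycle miRNAs and cell type markers, and the 5 most similar probes. The miRNAs and lists were chosen with earlier results of these data known. Alternatives covered background, normalization, filters, array block, dye, eBayes options, threshold, spot averaging, detection limit and left-out samples.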

Additional observations from a re-analysis of the deposited data

How the results depend on the processing

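Counts of probes called higher and lower were 29 and 23, of which 6 lower calls were paralogs. They became 45 and 41 with plain subtraction (floor 10), 46 and 43 with offset 16, 48 and 45 with no local background, 47 and 13 with median centring, 48 and 46 when loess used detected probes, 50 and 55 under quantile normalization, 138 and 8 with spike centring, 45 and 59 with the authors' table, 18 and 17 among the 118 probes detected throughout, 21 and 13 over all 700 probes (no filter), 24 and 13 among those above the median signal, 6 and 1 at a threshold of 0.01, and 25 and 6 with no normalization within arrays (chosen after seeing the data). The share of calls that were higher was 78.3% with median centring, 94.5% with spike centring, 80.6% with no normalization and 43.3% with the authors' table. The setting with no normalization also used plain subtraction.

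The paralogs called lower numbered 2 over all 700 probes, among those above the median signal and with no normalization, and 1, miR-106a, at 0.01. Their median of -2.29 moved to -2.76 with plain subtraction, -2.58 with offset 16, -2.07 with no local background, -1.86 with median centring, -2.45 with quantile normalization, -0.89 with spike centring, -2.54 with the authors' table, -2.02 over all 700 probes with the 8 paralogs included, -2.04 for the 4 paralogs detected throughout and -1.94 with no normalization. It was -2.16 without array 1 and -2.24 without array 2, values with no test. Without the replicate block 38 probes rose and 33 fell, all 6 paralogs among the latter. Leaving out each sample of that fit leaves 1 sample in a stage, whose spread is taken from the other stage; it called 21 to 35 probes higher and 19 to 31 lower, the same 6 paralogs, and medians from -2.32 to -2.06.

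With each filter the ratios stay as they were, while the adjustment and the eBayes prior both change, and their parts were not separated: miR-106b (-1.76), miR-93 (-2.57) and miR-25 (-1.65) had adjusted p-values of 0.119 over all 700 probes and 0.0749 among those above the median signal, and miR-20b (-2.27) 0.211 and 0.117. miR-20b also missed the threshold with eBayes trend (0.0504) and robust (0.0513). At 0.01 miR-92b (-2.32) and the other 4 were lost. miR-25 was lost with median centring (-0.93) and spike centring (-0.25), and miR-106b with spike centring (-0.36). With no normalization miR-106b (-1.18), miR-93 (-1.88), miR-25 (-0.84) and miR-92b (-2.00) were lost. For the remaining losses the cause was not tested. All 136 tested ratios of the 6, each taken over all samples of its fit, were below 0. For filters, blocks and eBayes options this follows from the same mean ratios. On array 2 alone, miR-106b and miR-25 were not lower with spike centring or without normalization. Detection counts of the 8 were the same at 2 SDs and with 4 spots.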
